A study of Homo sapiens with 4 samples.

Results

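The GDNF and endothelin receptors and ligands are described here through 10 genes, taken by symbol from the 36601 features of the deposited count matrices. They are RET, GFRA1, GFRA2, GFRA3, GDNF, NRTN, EDNRA, EDNRB, EDN3 and ECE1, and all 10 had at least 1 UMI (a counted RNA molecule) in the annotated nuclei of each sample. The samples were single-nucleus RNA-sequencing libraries of enteric ganglioids, free-floating clusters of neurons, progenitors and other cells that were differentiated from the human embryonic stem cell line H9 by way of neural crest. In the PP121 group, 2 samples received 2 µM of PP121, a compound that blocks a range of receptor tyrosine kinases, from day 15 to day 20, and the control group held 2 samples without it. All 4 samples were in a neuron-induction medium that contained GDNF itself, at 10 ng/ml, from day 15 on. Each sample pooled ganglioids of 1 cell line, and the labels number the differentiations 1 and 2 in each group. The sources used here do not state whether samples with the same number came from 1 differentiation, and the p-values measure only the spread between these samples.

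GDNF and neurturin (NRTN) are secreted growth factors. They bind a co-receptor that is anchored in the membrane by lipid, GFRα1 for GDNF and GFRα2 for neurturin, and the complex activates the receptor tyrosine kinase RET. Endothelin 3 (EDN3) is cut from its precursor by endothelin-converting enzymes such as ECE1 and acts on EDNRB, a G-protein-coupled receptor. Both pathways act on neural crest cells while they colonise the gut, and loss of RET or EDNRB function is a known cause of Hirschsprung disease, in which the distal gut lacks enteric ganglia.

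The deposited annotation put nuclei into enteric neurons, progenitor 1, progenitor 2, mesenchymal, epithelial and unknown nuclei, and nuclei without a class were left out. It dated replicate 1 of both groups to day 42 and replicate 2 of both groups to day 38, whereas the study names a single day, so day and differentiation cannot be told apart. In both control files the sample name written in the annotation differed from the label, and the labels were used. The annotated nuclei numbered 2912 to 4587 per sample, with 23348045 to 34123759 UMIs in all and a median of 6289 to 7071 UMIs per nucleus, and pairs of samples shared 0 to 8 cell barcodes. Mesenchymal nuclei numbered 40 and 33 in the samples of day 42 and 408 and 422 in those of day 38. Enteric neurons held the neuronal markers ELAVL4 and DCX, but 2 of the markers of enteric identity, HAND2 and TLX2, were near 0 there (mean 0.05 and 0.04 CPM, counts per 1000000 UMIs). Clusters made over all samples together placed 14.6% and 19.2% of the annotated neurons of control replicates 1 and 2 among progenitors, against 4.53% and 7.79% in PP121 replicates 1 and 2. The part of this boundary in the neuron results was not tested apart from the refits given with them.

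Levels are given as CPM, the UMIs of the gene scaled to the UMIs of the class in a sample, after summing over nuclei, in the order control replicate 1, control replicate 2, PP121 replicate 1 and PP121 replicate 2. In such sums fewer nuclei with a transcript and less transcript per nucleus cannot be told apart. The levels of different genes are not compared, because the yield of intronic and exonic reads depends on gene length. Differences between classes are descriptions with no test, since the classes were clusters of these same nuclei and EDNRA was among the genes that the study used to name the mesenchymal class.

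Upstream sequence is shown for RET, EDNRA and EDNRB, the signalling receptors of both pathways, whose UMIs lay mostly in enteric neurons, mesenchymal nuclei and progenitor 2, as context for those distributions. The stretches come from the RefSeq promoter table (GRCh38.p14), which held entries for 8 of the 10 genes, and they were shortened to the bases that no exon of GENCODE v29 covers. Capitals mark the GC box, GGGCGG on either strand.
RET, chr10:43076819-43077026, plus strand: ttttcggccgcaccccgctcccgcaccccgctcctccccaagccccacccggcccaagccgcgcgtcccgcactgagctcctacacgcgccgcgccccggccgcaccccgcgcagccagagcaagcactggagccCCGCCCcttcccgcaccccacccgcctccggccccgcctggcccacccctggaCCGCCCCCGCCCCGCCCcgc
EDNRA, chr4:147480847-147480916, plus strand: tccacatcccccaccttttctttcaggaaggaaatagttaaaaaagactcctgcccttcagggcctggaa
EDNRB, chr13:77918832-77919006, minus strand: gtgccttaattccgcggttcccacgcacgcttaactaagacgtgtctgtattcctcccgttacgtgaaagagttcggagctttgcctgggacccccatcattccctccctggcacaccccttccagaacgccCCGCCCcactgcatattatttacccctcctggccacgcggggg
The RET stretch of 208 bases was 80.8% G and C, with 27 CpG and 4 GC boxes. The same window held a GC box in 36.7% of 35116 promoters. The EDNRB stretch of 175 bases was 58.9% G and C, with 12 CpG and 1 GC box, a motif that 38.6% of promoters held in that window. It lies before a RefSeq start that is itself within the gene as GENCODE v29 spans it. The EDNRA stretch of 70 bases was 47.1% G and C, with no CpG and no GC box, where 12.3% of promoters held one. It covers only the bases from 250 to 181 before the RefSeq start. None of the printed stretches held the SOX core ACAAAG or the E box CANNTG on either strand. Of all promoters, 11.7% and 56.0% held them over the RET window, and 4.13% and 24.4% over the EDNRA window. Over the EDNRB window 9.60% and 49.3% did. A further RET entry within the gene (chr10:43104515-43104731, 217 bases, 59.4% G and C) held 2 E boxes and 1 GC box, and a further entry of EDNRB is not shown. A match describes letters only, and the absence of one says nothing of the factor.

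Of the ligands, GDNF (chr5:37812677-37839686, minus strand, GRCh38) was detected at the limit of these libraries. It had 80 UMIs over all 4 samples, 26, 23, 17 and 14 per sample, or 0.762, 0.926, 0.50 and 0.60 CPM of all annotated nuclei. Both PP121 samples lay below both control samples, and the fitted log2 fold change of -0.61 (SE 0.39) did not pass (edgeR adjusted p = 0.931). Over all annotated nuclei, 16% of the 24123 genes tested had PP121 samples below both controls. GDNF is overlapped on the opposite strand by GDNF-AS1 (chr5:37811589-37953827), which had 72, 35, 68 and 25 UMIs, and whether the counting used strand is not stated, so reads of the pair may be mixed. Enteric neurons held 14, 5, 5 and 3 GDNF UMIs. The 21 epithelial nuclei of control replicate 2 included 4 that held 10 GDNF UMIs, 6 of them in 1 nucleus.

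NRTN (chr19:5823802-5828324, plus strand) had 119 UMIs in all, 44, 22, 35 and 18 per sample. In enteric neurons it stood at 29, 10, 11 and 10 UMIs (1.53, 0.902, 0.653 and 1.14 CPM). The groups overlapped, with a log2 fold change of -0.50 (SE 0.51) that did not pass.

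EDN3 (chr20:59300427-59325992, plus strand), the ligand of EDNRB, was the scarcest of the 10 genes with 42 UMIs, 4, 12, 3 and 23 per sample. Mesenchymal nuclei held 64.3% of them. Within that class EDN3 had 0 UMIs in both samples of day 42, where 33 to 40 nuclei allow a level of up to 8.41 and 10.1 CPM (3 UMIs), and 9 and 18 UMIs (2.49 and 5.18 CPM) in control and PP121 replicate 2, spread over 7 and 15 nuclei. The limits of day 42 lie above the levels of day 38, so a difference between days was not detectable at this depth. On day 38 the ratio of PP121 to control was 2.08, with an interval of 0.889 to 5.27 that covers counting error only. EDN3 therefore came mostly from a class that made up few of the nuclei, and from the samples in which that class was large.

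RET (chr10:43077027-43130351, plus strand), the signalling receptor for GDNF and neurturin, had 124 UMIs in 116 nuclei. Enteric neurons held 66.9% of these, and 47.8% of all UMIs. In the neurons RET had 31, 19, 20 and 13 UMIs (1.64, 1.71, 1.19 and 1.48 CPM), and no neuron held more than 2. Progenitor 1 held 4, 3, 9 and 2 UMIs (1.01, 0.753, 1.28 and 0.657 CPM), progenitor 2 held 3, 4, 3 and 6 (0.336, 0.740, 0.378 and 0.927 CPM), mesenchymal nuclei 0, 2, 0 and 2, and epithelial nuclei none. After thinning each nucleus to 2000 UMIs, 0.349%, 0.321%, 0.148% and 0.103% of neurons had a RET UMI. Mesenchymal nuclei of control and PP121 replicate 2 gave 0.247% and 0.238%, 1 nucleus in each sample. Their median depths were 8045 and 7270.5 UMIs, against 7795 and 8110 UMIs in the neurons of the same samples. The neuron shares of both control samples lay above these values and those of both PP121 samples below. That mesenchymal nuclei lack RET was assumed, and 1 nucleus per sample cannot set a background. The share of neurons that express RET is therefore not read from these counts. Without thinning, 1.30%, 1.28%, 0.985% and 1.23% of neurons had a RET UMI.

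The deposited annotation names neuron subtypes EN 1 to EN 8 in control samples and EN A to EN I in PP121 samples. The study took EN A to EN I from control and PP121 neurons merged, and reports high similarity to EN 1 to EN 8. No mapping between the names was used here. RET UMIs in the subtypes were too few to be read as a level. EN 8 held 3 and 8 of them (4.04 and 8.29 CPM) in control replicates 1 and 2, and EN H held 10 and 5 (4.36 and 2.59 CPM) in PP121 replicates 1 and 2. EN F, the subtype with the highest GFRA1 level, held 0 in both PP121 samples.

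GFRA1 (chr10:116056925-116273467, minus strand), the co-receptor of GDNF, had 2532 UMIs, 65.6% of them in enteric neurons. Its neuronal level was 16.2, 30.7, 25.5 and 66.9 CPM, from 307, 340, 429 and 586 UMIs. Progenitor 2 followed with 10.6, 15, 11.6 and 23.6 CPM, and progenitor 1 with 7.33, 9.78, 8.40 and 16.8 CPM. In each sample the order was neurons above progenitor 2 above progenitor 1. Across samples the classes overlapped, because neurons of control replicate 1 stood below progenitor 2 of PP121 replicate 2. In mesenchymal nuclei GFRA1 had 1 UMI in each sample of day 42, and 84 and 121 UMIs (23.2 and 34.8 CPM) on day 38. Of the 84 UMIs of control replicate 2, 71.4% lay in 10 nuclei.

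**Figure D1:**
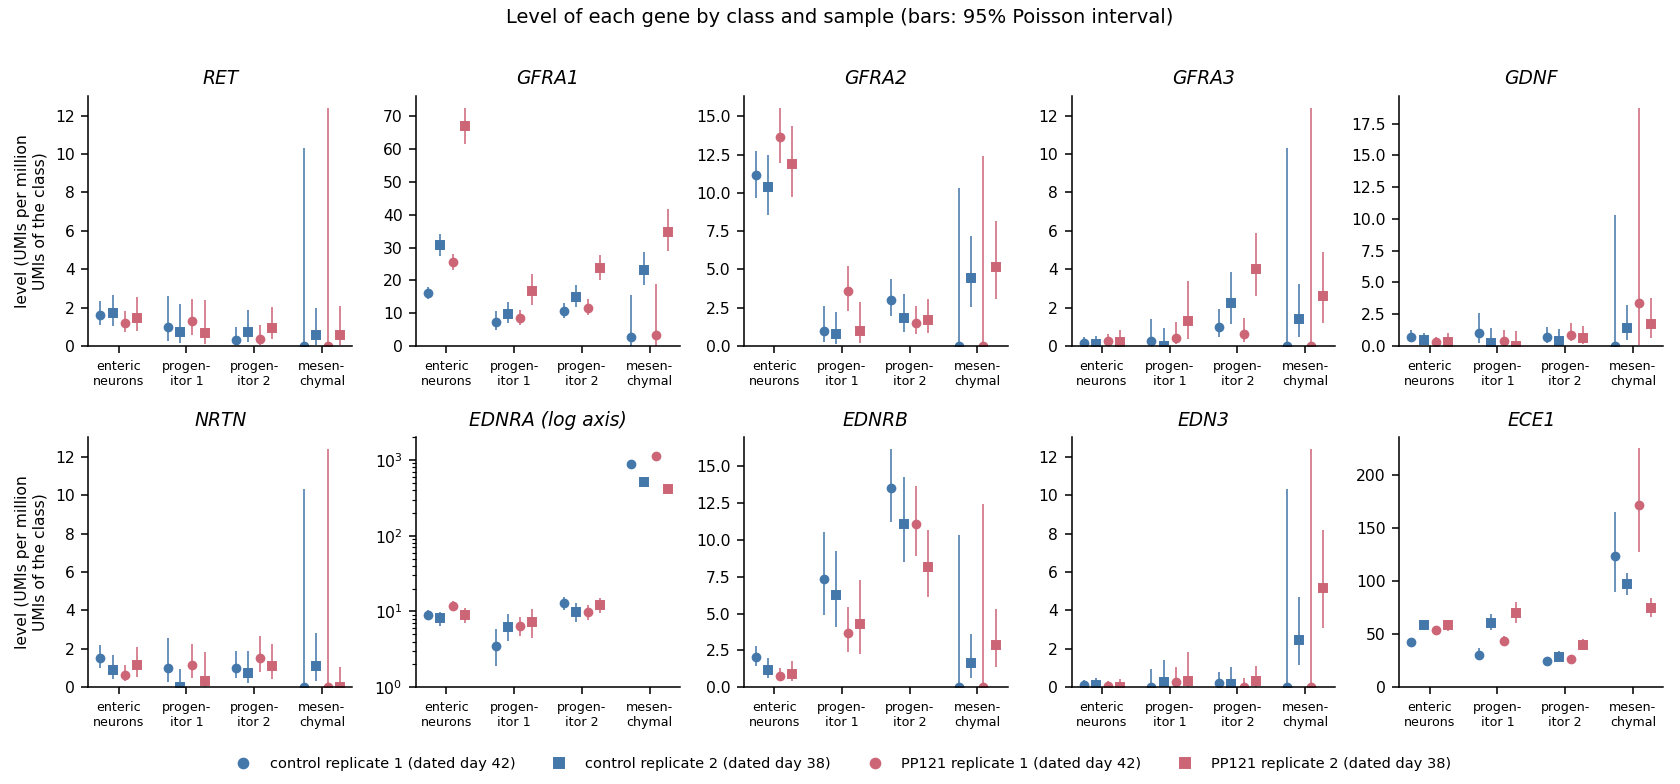
Level of each of the 10 genes (y axis, CPM of the class, logarithmic for EDNRA and linear for the others) in enteric neurons, progenitor 1, progenitor 2 and mesenchymal nuclei (x axis). Points are the 4 samples and bars are 95% Poisson intervals of the counts. In each of the 4 samples GFRA1 and GFRA2 are highest in enteric neurons, EDNRB is highest in progenitor 2, and EDNRA lies between 419 and 1134 in mesenchymal nuclei.

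The neuronal GFRA1 level differed between subtypes. In control samples EN 6 stood at 52.3 and 68.6 CPM (58 and 110 UMIs over 126 and 155 nuclei), EN 2 at 33.9 and 36.9 CPM, and EN 5 at 2.25 and 7.26 CPM. In PP121 samples EN F stood at 112 and 163 CPM (113 and 290 UMIs over 135 and 182 nuclei), EN B at 30.2 and 71.2 CPM, and EN G at 3.70 CPM in PP121 replicate 1. Most of the neuronal UMIs lay outside EN 6 and EN F, 249 of 307 and 230 of 340 in control replicates and 316 of 429 and 296 of 586 in PP121 replicates. There the level was 14.0 and 24.2 CPM in control and 20.0 and 42.4 CPM in PP121 samples. By deposited transmitter identity, glutamatergic neurons held more GFRA1 than other neurons in every sample (28.1, 41.0, 31.0 and 72.3 against 11.8, 20.8, 21.2 and 57.1 CPM). GABAergic neurons held less in every sample (6.63, 14.7, 13.2 and 30.8 against 25.2, 37.5, 35.6 and 75.9 CPM), as did cholinergic neurons (8.84, 17.7, 8.89 and 20.1 against 19.8, 34.5, 33.5 and 73.3 CPM). These identities rest on imputed expression of the same nuclei, so the splits are descriptions.

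**Figure D2:**
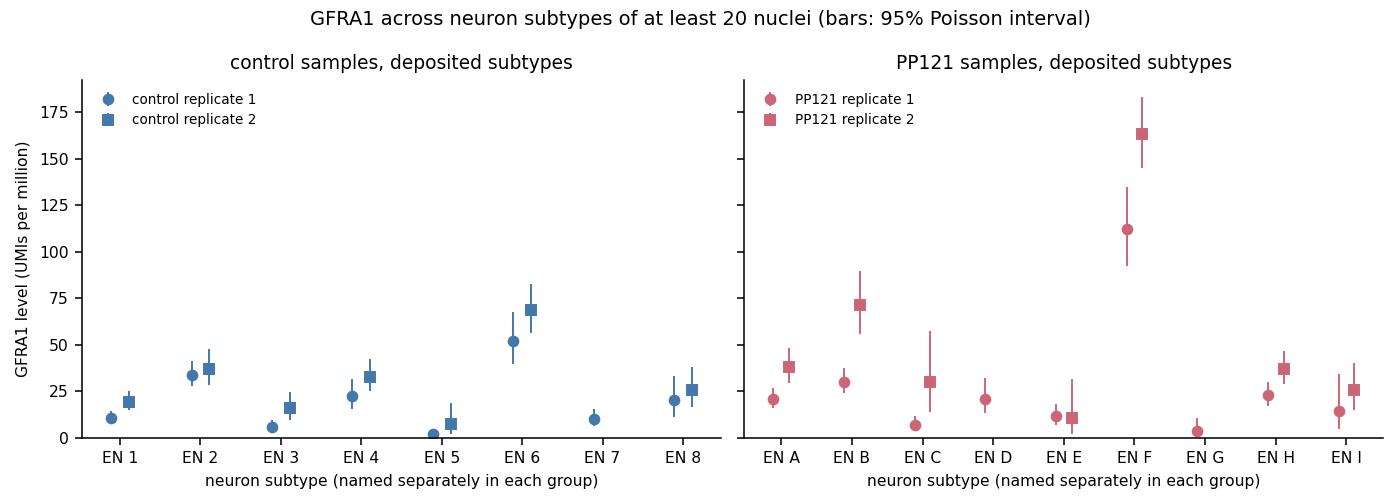
GFRA1 level (y axis, CPM of the subtype) in the deposited neuron subtypes (x axis) of control samples (left) and PP121 samples (right), for subtypes of at least 20 nuclei. Points are samples and bars 95% Poisson intervals. EN 6 reaches 52.3 and 68.6 and EN F 112 and 163. The deposited names differ between the groups, and no mapping between the names of both sides was used here.

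GFRA2, the co-receptor preferred by neurturin, had 847 UMIs, 77.9% of them in enteric neurons. Its neuronal level was 11.1, 10.4, 13.7 and 11.9 CPM (211, 115, 230 and 104 UMIs). Progenitor 2 stood at 3.02, 1.85, 1.51 and 1.70 CPM and progenitor 1 at 1.01, 0.753, 3.56 and 0.985 CPM, so every neuronal value lay above every progenitor value. The subtypes with much GFRA2 were not those with much GFRA1. EN 8 held 18.8 and 40.4 CPM in control samples, and EN H (40.6 and 24.4 CPM) and EN I (37.9 and 17.0 CPM) led in PP121 samples. EN 2 held 3.26 and 1.23 CPM, and EN F held 0.993 and 1.13 CPM, 1 and 2 UMIs.

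GFRA3 (chr5:138252379-138274671, minus strand), the co-receptor of artemin, had 93 UMIs, 55.9% of them in progenitor 2, with 9, 12, 5 and 26 UMIs there (1.01, 2.22, 0.630 and 4.01 CPM). The highest value belonged to PP121 replicate 2 and the lowest to PP121 replicate 1.

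EDNRA (chr4:147480917-147544954, plus strand), the endothelin receptor of mesenchyme and smooth muscle, had 4987 UMIs, of which mesenchymal nuclei held 79.8% with 6.66% of all UMIs. There it stood at 883, 518, 1134 and 419 CPM (315, 1875, 337 and 1455 UMIs). The small mesenchymal samples of day 42 were thus the higher ones in both groups. An EDNRA UMI was found in 31 of 40, 292 of 408, 27 of 33 and 292 of 422 mesenchymal nuclei, and in 60%, 48.4%, 57.6% and 43.1% after thinning. In the samples of day 42, 71.7% and 74.8% of the UMIs came from 10 nuclei.

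In other classes EDNRA was lower by more than an order of magnitude. Enteric neurons stood at 9.02, 8.12, 11.9 and 9.02 CPM, progenitor 2 at 12.8, 9.81, 9.84 and 12.2 CPM and progenitor 1 at 3.54, 6.27, 6.41 and 7.22 CPM. In all annotated nuclei EDNRA stood at 18.3, 82.3, 19.8 and 70.5 CPM, and the summed level of 12 mesenchymal markers at 230, 844, 244 and 1023 CPM, higher in both samples with many mesenchymal nuclei. The summed level of these markers in neurons was 143, 192, 153 and 221 CPM, and the part of RNA from mesenchymal nuclei in the neuronal EDNRA level was not tested.

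EDNRB (chr13:77895481-77975529, minus strand), the receptor for EDN3 in neural crest, had 595 UMIs, of which progenitor 2 held 54.1% with 24.7% of all UMIs. Progenitor 2 stood at 13.5, 11.1, 11.1 and 8.18 CPM (121, 60, 88 and 53 UMIs), progenitor 1 at 7.33, 6.27, 3.70 and 4.27 CPM, and enteric neurons at 2.06, 1.17, 0.772 and 0.914 CPM. These 3 classes did not overlap across samples, so EDNRB was lowest in the class in which GFRA2 was highest. After thinning, 2.79%, 2.07%, 2.09% and 2.00% of progenitor 2 nuclei had an EDNRB UMI, against at most 0.476% of mesenchymal nuclei. The unknown nuclei held 15% of EDNRB UMIs, with 9, 17, 12 and 51 per sample, but in PP121 replicate 2 these came from 4 nuclei, 1 of which held 43. The long non-coding RNA EDNRB-AS1 (chr13:77828222-77833950, plus strand), which does not overlap EDNRB in GENCODE v29, stood at 20.1, 23.3, 17.0 and 24.7 CPM in progenitor 2 and at 5.96, 9.02, 5.23 and 15 CPM in neurons.

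**Figure D3:**
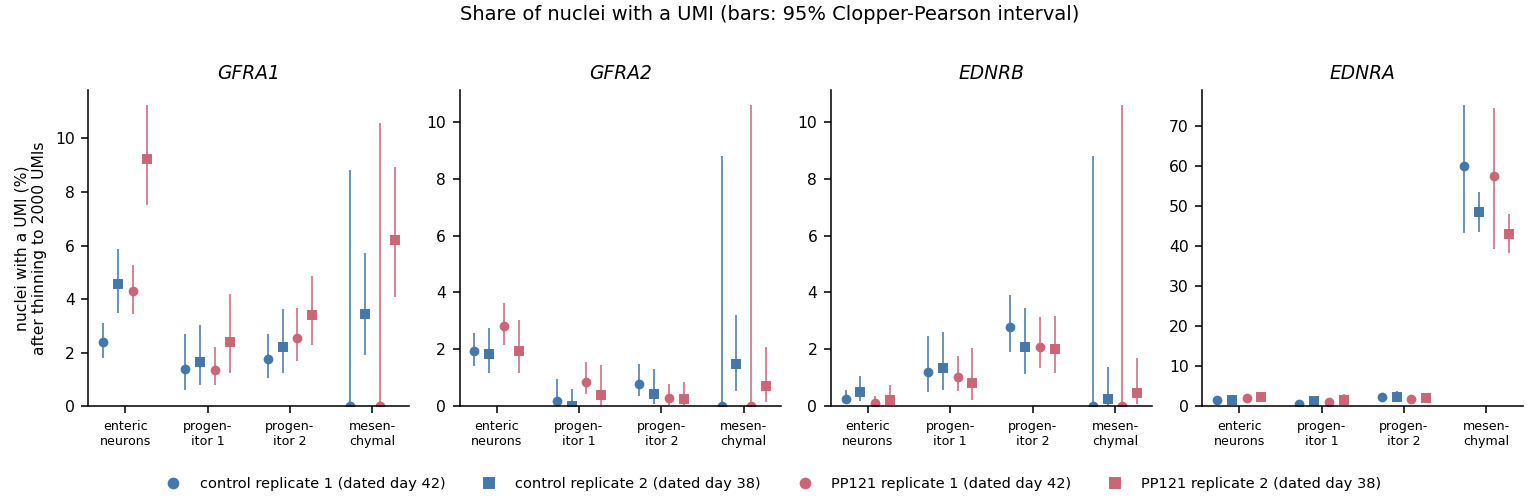
Share of nuclei with at least 1 UMI (y axis, percent, after each nucleus was thinned to 2000 UMIs) of GFRA1, GFRA2, EDNRB and EDNRA by class (x axis). Points are samples and bars are 95% Clopper-Pearson intervals, which are wide in mesenchymal nuclei of day 42 because these number 40 and 33. GFRA1 reaches 9.24% in neurons of PP121 replicate 2, and EDNRA lies at 43.1% to 60% in mesenchymal nuclei.

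ECE1 (chr1:21217247-21345572, minus strand), the converting enzyme, had 5463 UMIs, 52.7% of them in enteric neurons, where 47.8% of all UMIs lay. It was found in every class. The levels were 42.6, 58.7, 53.9 and 58.4 CPM in neurons, 30.8, 61.0, 43.3 and 70.0 CPM in progenitor 1, 25.1, 28.9, 26.4 and 39.8 CPM in progenitor 2, and 123, 97.3, 172 and 74.9 CPM in mesenchymal nuclei. Mesenchymal values lay above all others of these 4 classes, progenitor 2 lay below neurons in every sample, and neurons and progenitor 1 overlapped.

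The first comparison asked whether PP121 changed these genes within a class. In edgeR's quasi-likelihood test without a block, 0 of the 10 genes passed an adjusted p of 0.05 in any class, and the share of all genes called was 0% in each class as well. At an unadjusted p under 0.05 there were 2549 of 21243 genes in neurons, 621 in progenitor 1, 1774 in progenitor 2 and 222 in mesenchymal nuclei. DESeq2 called 87, 1, 96 and 0 genes in the same order, none of them among the 10. The filter on low counts left 7 of the 10 genes for the test in neurons, 4 in progenitor 1, 6 in progenitor 2, 3 in mesenchymal nuclei and all 10 in the sum of all nuclei. Samples with the same replicate number deviated together, so a fit with the replicate as a block was run beside this test, and it called 14.8% of genes in neurons, 3.69% in progenitor 1, 6.71% in progenitor 2, 0.452% in mesenchymal nuclei and 0.883% in all nuclei. Only GFRA1 in neurons was called among the 10 genes. This fit rests on a single residual degree of freedom per gene, plus what edgeR borrows across genes.

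GFRA1 was higher in the PP121 sample of both days in neurons. The ratio was 1.57 on day 42 (interval 1.36 to 1.83) and 2.18 on day 38 (1.91 to 2.50), with intervals that cover counting error only. The groups nevertheless overlapped, since control replicate 2 at 30.7 CPM exceeded PP121 replicate 1 at 25.5 CPM. The mean was 23.4 ± 10.2 CPM (SD, n = 2) in control and 46.2 ± 29.3 CPM (SD, n = 2) in PP121 neurons, and the log2 fold change was 1.02 (SE 0.49, 95% interval -0.14 to 2.19, edgeR adjusted p = 0.451). With the replicate block it was 0.93 (SE 0.13, 0.66 to 1.21), and GFRA1 passed (adjusted p = 1.53e-05). With neurons taken from the joint clusters it was 0.84 with the block (adjusted p = 0.00991) and 0.93 without it (adjusted p = 0.715). Leaving out PP121 replicate 2 gave 0.14, and leaving out PP121 replicate 1 gave 1.60. Each of these fits sets a PP121 sample of a single day against controls of both days. GFRA1 was also lower on day 42 than on day 38 in both groups, so day and treatment are mixed in both values. The log2 fold change was 0.60 without control replicate 1 and 1.59 without control replicate 2.

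In progenitors the GFRA1 difference was smaller. Within days the ratio of PP121 to control in progenitor 2 was 1.09 (0.81 to 1.47) on day 42 and 1.58 (1.20 to 2.09) on day 38, and in progenitor 1 it was 1.15 (0.72 to 1.86) and 1.71 (1.11 to 2.67). The log2 fold change was 0.50 in both classes, and with the block it was 0.47 (adjusted p = 0.633) in progenitor 1 and 0.43 (adjusted p = 0.283) in progenitor 2. Without PP121 replicate 1 the value in progenitor 2 was 0.95, and without PP121 replicate 2 it was -0.12. Here too a PP121 sample of a single day was set against controls of both days. The change in progenitors minus that in neurons was -0.52 for progenitor 1 (95% interval -1.13 to 0.10, adjusted p = 0.632) and -0.56 for progenitor 2 (-1.09 to -0.04, unadjusted p = 0.0382, adjusted p = 0.810, edgeR with the sample as block), and 0% of 20664 genes passed for either interaction. A difference between neurons and progenitors in the response of GFRA1 was therefore not shown.

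EDNRB was lower in both PP121 samples than in both control samples in neurons and progenitor 1, and in progenitor 2 the groups met at 11.1 CPM. In neurons, where it had 39, 13, 13 and 8 UMIs, the ratio was 0.375 (0.184 to 0.718) on day 42 and 0.779 (0.280 to 2.03) on day 38. The log2 fold change was -0.95 (SE 0.46, 95% interval -2.04 to 0.14, adjusted p = 0.455), and -0.98 with the block (SE 0.45, adjusted p = 0.152). Progenitor 1, with 29, 25, 26 and 13 UMIs, gave -0.81 (SE 0.43, -0.82 with the block, adjusted p = 0.434), and progenitor 2 gave -0.33 (SE 0.24, -0.32 with the block, adjusted p = 0.558). None of these passed. With neurons taken from the joint clusters, which move more control than PP121 nuclei out of the neurons, EDNRB stood at -1.18 without and -1.21 with the block (adjusted p = 0.146). In neurons the log2 fold change was -0.48 without control replicate 1. A one-sided order of this kind is common, since 25.4% of genes in neurons and 11.2% in progenitor 1 had both PP121 samples below both controls.

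**Figure D4:**
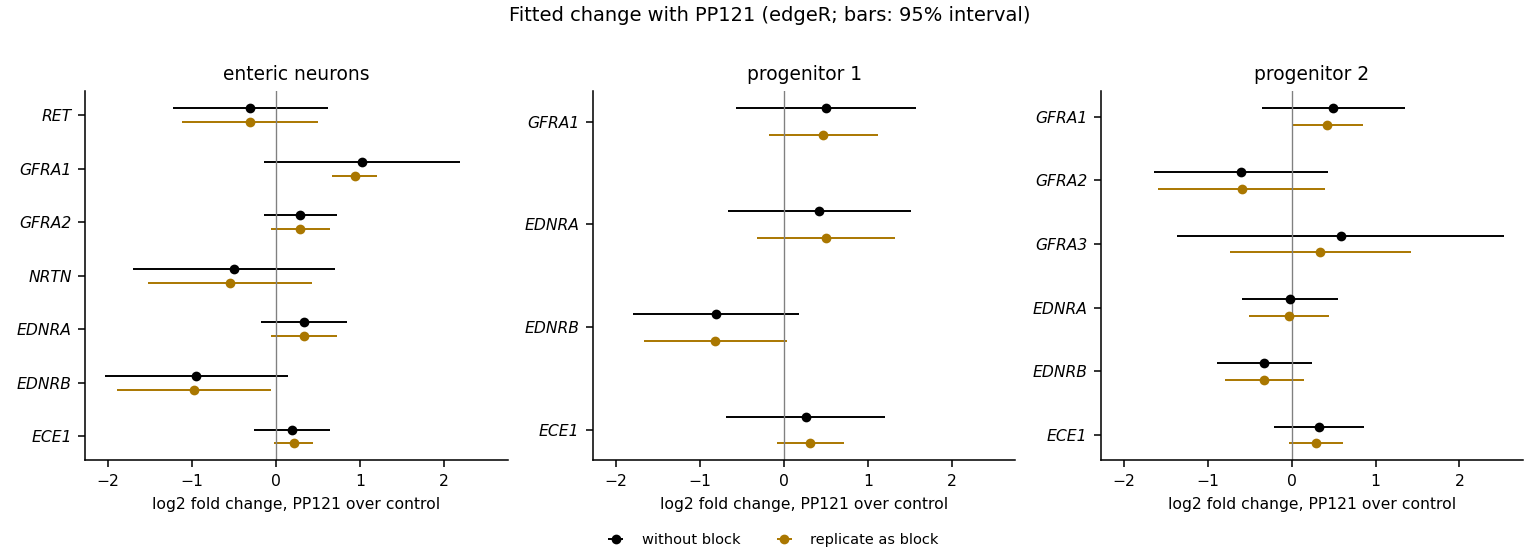
Fitted log2 fold change of PP121 over control (x axis) for the genes that passed the filter (y axis) in enteric neurons, progenitor 1 and progenitor 2. Points are edgeR estimates without a block (black) and with the replicate as a block (brown), and bars are 95% intervals. The interval of GFRA1 in neurons runs from -0.14 to 2.19 without the block and from 0.66 to 1.21 with it, and the points of EDNRB lie below 0 in all 3 classes.

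RET gave no detectable change in neurons, with a log2 fold change of -0.31 (SE 0.39, 95% interval -1.23 to 0.61, adjusted p = 0.776) and a similar block value (adjusted p = 0.668). Both PP121 samples nonetheless lay below both controls, as for EDNRB. GFRA2 had both PP121 samples above both controls in neurons, where 19.7% of genes did, with a log2 fold change of 0.29 (SE 0.18, adjusted p = 0.562). EDNRA gave 0.33 (SE 0.22), and its groups met at 9.02 CPM. In progenitor 2 GFRA2 lay below both controls in both PP121 samples, where 21.8% of genes did and 18.2% lay above, with -0.61 (-0.59 with the block). ECE1 stood at 0.19 in neurons (SE 0.19, adjusted p = 0.716), with a ratio of 1.27 (1.15 to 1.39) on day 42 and 0.994 (0.884 to 1.12) on day 38. In mesenchymal nuclei EDNRA gave 0.12 (adjusted p = 1.0) and 0.01 with the block. PP121 was above control on day 42, with a ratio of 1.28 (1.10 to 1.5), and below it on day 38, with 0.809 (0.755 to 0.867).

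The shares of nuclei with a UMI, thinned to 2000 UMIs, were compared in a family of 39 pairs of gene and class. The groups did not overlap in 15 pairs, higher with PP121 in 9 and lower in 6, an order that 2 against 2 samples often give, so the count is not read as a result. None could pass, because the smallest p that 2 against 2 samples allow in a two-sided exact permutation test is 0.333 (0.867 after Benjamini-Hochberg adjustment). GFRA1 was found in 2.40%, 4.57%, 4.30% and 9.24% of neurons, where the groups overlapped as they did for the level. Without thinning these shares were 7.34%, 13.4%, 11.9% and 23.8%. In progenitor 2 it was found in 1.74%, 2.22%, 2.55% and 3.41%, with both PP121 samples above both controls.

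The second comparison set replicate 1 of both groups (day 42) against replicate 2 (day 38), since the annotation dates them apart. GFRA1 was lower in both samples of day 42 in neurons, progenitor 1, progenitor 2 and mesenchymal nuclei. The log2 fold change was -1.29 in neurons (adjusted p = 0.656), -0.88 in progenitor 1 (adjusted p = 0.214), -0.86 in progenitor 2 (adjusted p = 0.683) and -3.18 in mesenchymal nuclei (SE 0.75, adjusted p = 0.0605). With the treatment as a term in the fit, which called 9.49%, 14.6%, 4.81% and 4.39% of genes in these classes, GFRA1 passed in all 4 (-1.23, -0.89, -0.83 and -3.15, adjusted p = 2.17e-07, 0.0470, 0.00840 and 0.0113). The mesenchymal value rests on 1 UMI in each sample of day 42, whose levels of 2.80 and 3.36 CPM had upper bounds of 15.6 and 18.7 CPM. Those bounds did not reach the lower sample of day 38 at 23.2 CPM, although its interval began at 18.5 CPM. Samples of day 42 lay below both samples of day 38 in 14.2% of genes in neurons, 15.5% in progenitor 1, 13.1% in progenitor 2 and 25.6% in mesenchymal nuclei.

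EDNRA was the only one of the 10 genes that passed this comparison without the treatment term, in mesenchymal nuclei, where 1.93% of 14387 genes did. It was higher on day 42, at 883 and 1134 CPM against 518 and 419 CPM, with a log2 fold change of 1.15 (SE 0.25, 95% interval 0.59 to 1.70, edgeR adjusted p = 0.0444, and 0.00181 with the treatment term). The call was lost without PP121 replicate 2 (1.06, adjusted p = 0.0967), with mesenchymal nuclei taken from joint clusters (0.86, adjusted p = 0.352) and without the filter on low counts (1.04, adjusted p = 0.304). Mesenchymal nuclei of day 42 numbered 33 to 40 per sample, and the summed level of 12 mesenchymal markers in the class was 4302 and 3957 CPM there against 4355 and 5095 CPM on day 38.

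ECE1 was lower on day 42 in neurons, progenitor 1 and progenitor 2, and higher in mesenchymal nuclei (0.81, adjusted p = 0.249). In progenitor 1 the log2 fold change was -0.96 (SE 0.22, adjusted p = 0.0984) and ECE1 passed with the treatment term (-0.99, adjusted p = 7.91e-05). GFRA3 in progenitor 2 gave -1.97 (adjusted p = 0.611) and passed with that term (-1.93, adjusted p = 0.0216), from 9 and 5 UMIs on day 42 against 12 and 26 on day 38. EDNRB overlapped between days in neurons, progenitor 1 and progenitor 2, with log2 fold changes of 0.38, -0.16 and 0.30.

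Nitrergic neurons, which relax gut muscle through nitric oxide and are the cell type of interest to the study, were compared with the other neurons of the same samples. The deposited identity, given to 449, 230, 358 and 91 neurons, rests on imputed NOS1 and a gene module, so it is not independent of other genes. Of the 10 genes, 4 passed the filter and 1, GFRA2, passed the test, where 12.3% of 17713 genes were called. GFRA2 was higher in the nitrergic neurons of each sample, at 15.1, 19.3, 14.9 and 24.4 CPM (56, 38, 46 and 21 UMIs) against 10.1, 8.63, 13.7 and 10.6 CPM. The log2 difference was 0.75 (SE 0.20, edgeR with the sample as block, adjusted p = 0.0273). It was lost without control replicate 1 (0.80, adjusted p = 0.0775), control replicate 2 (0.61, adjusted p = 0.136) or PP121 replicate 2 (0.60, adjusted p = 0.0551). With neurons split by an observed NOS1 UMI in place of the identity, the difference was 0.03 (adjusted p = 1.0).

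EDNRA was also higher in each sample, at 13.2, 13.7, 12.3 and 13.9 CPM against 8.02, 7.06, 11.9 and 8.32 CPM. Its log2 difference of 0.63 (SE 0.20) had an adjusted p of 0.0554, which was 0.0401 without doublet candidates (0.69). Split by a NOS1 UMI it turned to -0.90. The nitrergic sums of EDNRA and GFRA2 lay above all sums of other neurons, as for 5.26% of genes, and no member lay below them, as 5.65% of genes did. GFRA1 (-0.32, adjusted p = 0.304) and ECE1 (-0.15, adjusted p = 0.484) did not pass. EDNRB-AS1 was lower in nitrergic neurons (-1.33, adjusted p = 0.0055). RET was below the filter and had no test. It had 13, 8, 4 and 1 UMIs in nitrergic neurons (3.50, 4.06, 1.29 and 1.16 CPM) and stood at 1.19, 1.23, 1.28 and 1.55 CPM in other neurons. The counts of 4 and 1 in PP121 samples are too few to set the groups apart.

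**Figure D5:**
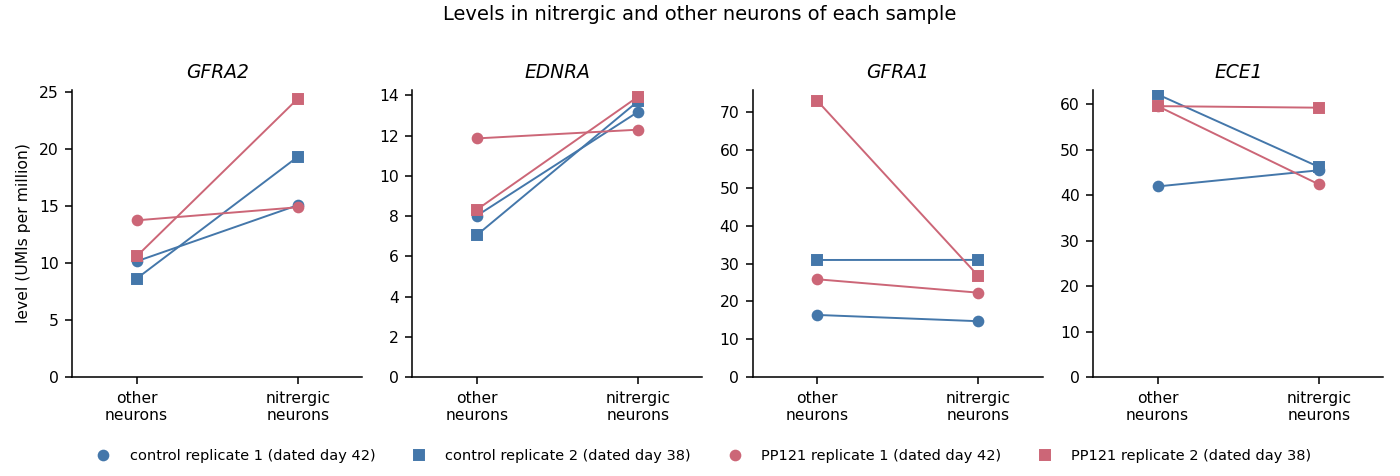
Level (y axis, CPM) of GFRA2, EDNRA, GFRA1 and ECE1 in other neurons and in nitrergic neurons of the same sample (x axis), with a line for each of the 4 samples. All 4 lines of GFRA2 slope upward, from between 8.63 and 13.7 to between 14.9 and 24.4, as do those of EDNRA.

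RET signals only together with a co-receptor, so transcripts of both were sought in the same nucleus. Of 6557 neurons, 78 had a RET UMI. GFRA1 was found in 13 of these 78 (16.7%, 95% Clopper-Pearson interval 9.18 to 26.8) and in 797 of the 6479 others (12.3%, 11.5 to 13.1). GFRA2 was found in 8 of the 78 (10.3%, 4.53 to 19.2) and in 472 of the 6479 others (7.29%). GFRA3 was found in none of the 78. The intervals overlapped, and deeper nuclei are more likely to show any pair of transcripts. After thinning, 16 neurons had a RET UMI and none of them a GFRA1 UMI, against 289 of 6520 others (4.43%), which 16 nuclei cannot tell apart. In progenitor 2, 1 of 209 nuclei with EDNRB had RET, and 12 of 209 had EDNRA (5.74%, 3.00 to 9.81), against 222 of 3591 nuclei without EDNRB (6.18%, 5.42 to 7.02).

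To place the more abundant genes among others, Pearson correlations of log2(CPM + 1) were computed over 16 sums, 4 classes of 4 samples each, against the other genes of at least 10 CPM. These are descriptions, since the sums share libraries and classes. EDNRA was most like AC004889.1, CARMN and HEY2 (r = 0.985, 0.984 and 0.983), of which CARMN is a long non-coding RNA of smooth muscle and HEY2 a target of Notch signalling. EDNRB was most like RGMA, ANOS1 and ANKRD6 (0.946, 0.929 and 0.928). GFRA2 was most like EPHA6, an ephrin receptor, ZFHX4-AS1 and SYT14 (0.967, 0.965 and 0.944). GFRA1 was most like EBF2, PAK1 and CYB5R3 (0.915, 0.913 and 0.912), and ECE1 was most like RAB30, ATP2A2, a calcium pump of the endoplasmic reticulum, and RNF152 (0.909, 0.904 and 0.902).

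Further genes of both pathways were counted from fixed lists, which together held 30 genes of GDNF and RET signalling, 23 of endothelin signalling, 16 transcription factors of the enteric lineage and 14 guidance or growth cues. Without the block none of them passed in any class. With the block, 7 of 27 GDNF and RET genes tested in neurons were higher with PP121 and 1 lower (median log2 fold change 0.13, against -0.01 over all genes), where 14.8% of all genes were called. DOK6, an adaptor of RET, stood at 154, 170, 211 and 218 CPM (0.45), SHC3, an adaptor of receptor tyrosine kinases, at 19.5, 15.3, 27.0 and 22.6 CPM (0.55), and CBLB, a ubiquitin ligase that removes such receptors, at 627, 700, 762 and 970 CPM (0.41). SHC2 gave 0.44, from 22.0, 21.0, 24.6 and 33.5 CPM. SORL1, a sorting receptor that carries GDNF and GFRα1, was the gene that fell, at 34.4, 24.0, 18.1 and 13.6 CPM (-0.84, SE 0.14, adjusted p = 0.000123). In all 5 the groups did not overlap. In neurons 19.7% of all genes had both PP121 samples above both controls, and 25.4% had them below. The 5 were named as the largest changes called with the block, so this order is not read as a result. With neurons taken from the joint clusters and the block, 3 of these 27 genes were higher and 1 lower, and without PP121 replicate 2 and the block none passed.

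In progenitor 1, SPRY1, an inhibitor of receptor tyrosine kinase signalling, was the single GDNF and RET gene of 23 that passed with the block. It fell, at 32.6, 23.1, 14.1 and 13.1 CPM (-1.06, adjusted p = 0.00341). In progenitor 2 the single one of 26 was SHC3, which rose at 36.2, 27.8, 71.4 and 66.4 CPM (1.14, SE 0.14, adjusted p = 1.26e-08). The block fit called 3.69% of all genes in progenitor 1 and 6.71% in progenitor 2, so a single call is not read as a result for the list. Under the joint clusters and the block, 0 of 26 GDNF and RET genes passed in progenitor 1 and 1 of 26 in progenitor 2. With the block, 1 of 20 endothelin genes in neurons, 1 of 15 in progenitor 1 and 1 of 17 in progenitor 2 were higher. None was lower, and 14.8%, 3.69% and 6.71% of all genes were called in these classes. No endothelin gene passed with joint clusters and the block. The single gene called in each class is likewise not read as a result for the list. In neurons it was MME, an enzyme that degrades endothelin among other peptides, which lies below the level set for naming a gene and was named after its values were seen (1.16, 3.07, 3.56 and 3.88 CPM, 1.02 with the block, adjusted p = 0.0405). In both progenitor classes this gene was PRKCE, a protein kinase C, at 21.0, 14.3, 32.3 and 32.5 CPM in progenitor 1 (0.86, adjusted p = 0.0201) and at 58.1, 41.5, 73.7 and 66.7 CPM in progenitor 2 (0.53, adjusted p = 0.00747). In mesenchymal nuclei 0 of 25 GDNF and RET genes and 0 of 16 endothelin genes passed.

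Of the transcription factors, 4 of 12 were higher in neurons and none lower with the block, where 14.8% of all genes were called. They included RARB, a retinoic acid receptor, at 137, 123, 185 and 239 CPM (0.73) and PAX3, a factor of neural crest, at 115, 163, 172 and 211 CPM (0.52). With the block, 1 of 10 factors was higher and none lower in each of progenitor 1 and progenitor 2. There 3.69% and 6.71% of all genes were called. Of the cues, 2 of 11 were higher in neurons and none lower with the block (median 0.04), near the 14.8% of all genes called. In progenitor 1, 6 of 10 were higher and none lower (median 0.90, with 3.69% of all genes called), in progenitor 2, 5 of 10 higher and 1 lower (median 0.53, 6.71% called), and in mesenchymal nuclei 3 of 10 higher (median 0.28, 0.452% called). With classes taken from the joint clusters and the block, 0 of 10 cues passed in progenitor 1, 4 of 10 were higher and 1 lower in progenitor 2, and 0 of 12 passed in mesenchymal nuclei. NRG1, a ligand of ERBB receptors, stood at 273, 382, 562 and 992 CPM in neurons (1.25, SE 0.09, adjusted p = 3.96e-10) and at 87.7, 82.2, 197 and 183 CPM in progenitor 2 (1.19, adjusted p = 1.77e-11). In mesenchymal nuclei NRG1 stood at 0, 16.6, 13.5 and 275 CPM, where the groups overlapped. DCC, a netrin receptor, stood at 1302, 1840, 2201 and 3446 CPM in neurons (0.87). In mesenchymal nuclei DCC stood at 2.80, 124, 609 and 204 CPM (2.34 with the block). NRG3, another cue of the list, stood there at 47.6, 89.3, 242 and 255 CPM (1.81 with the block). For both, the PP121 samples lay above both controls, as in 14% of genes in that class. SEMA3A, a repellent cue, stood at 18.1, 42.7, 30.4 and 184 CPM in progenitor 2 (1.53), where the groups overlapped. L1CAM, an adhesion molecule, stood at 10.4, 10.0, 19.2 and 20.4 CPM in progenitor 1 (0.93).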

How the data were processed

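The files held 1 table of UMI counts and 1 annotation table for each of 4 single-nucleus libraries. Per the labels, the submitters' processing notes name Cell Ranger, Seurat 4.0.4 and GRCh38, whereas the methods of the study name kallisto and bustools. Whether introns or strand entered the counting, and the gene annotation, are not given in the sources used here. The deposited counts were not normalized. The annotation gives the percent of a nucleus's UMIs from mitochondrial and ribosomal genes, which the authors computed and used to filter nuclei, and which is not used further here. Classes, subtypes, transmitter identities, phases and days were taken from the deposited annotation, and groups from the labels. No other per-sample column was used (0 columns).

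Counts were summed per sample and class. Differences were tested with edgeR 4.0.16 (R 4.3.3, TMM, filterByExpr, quasi-likelihood, Benjamini-Hochberg over all genes tested, threshold 0.05), with DESeq2 1.42.0 as an alternative. The contrast of nitrergic with other neurons, and the difference of the PP121 change between classes, had the sample as a block. The edgeR fits of PP121 in neurons were tested on simulated counts with known changes. They found 77% of 2-fold changes without the block and 79% with it. The simulation held no deviation shared by samples of the same number, so these shares need not hold for the data here. Samples with the same replicate number, which share a dated day, deviated together (correlation of deviations 0.411 in neurons, 0.421 in progenitor 1, 0.266 in progenitor 2, 0.255 in mesenchymal nuclei and 0.522 in all nuclei), so values with a replicate block are printed where they change a call.

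Intervals are 95% exact Poisson or Clopper-Pearson intervals, and a count of 0 allows up to 3 counts. They cover counting error only. Shares were computed after thinning to 2000 UMIs, which left out 10, 3, 6 and 2 neurons of control replicates 1 and 2 and PP121 replicates 1 and 2. Joint clusters over all samples (scanpy 1.11.5, Leiden resolution 0.2, 2000 variable genes, 18 principal components, 20 neighbours) gave alternative classes, and 2.34% to 3.66% of nuclei were marked as doublet candidates and left out in an alternative.

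The members and gene lists were chosen with earlier results of these data known. All 10 members are named. Of the pathway lists, genes were named that passed in a class with or without the block at 10 CPM or more on average, at most the 5 largest changes per list and class, and genes like a member were the 3 of highest correlation. Coordinates are from GENCODE v29 on GRCh38. Results for an item withheld here are not reported.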

Additional observations from a re-analysis of the deposited data

Results flagged for a closer look

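EDNRA in mesenchymal nuclei had opposite differences on the dated days. The ratio of PP121 to control was 1.28 on day 42, between samples of 33 and 40 mesenchymal nuclei, and 0.809 on day 38, between samples of 422 and 408. Each day has 1 sample per group, and the difference between the days was not tested.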

How the results depend on the processing

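Of 249 alternatives for single members, 215 kept direction and side of the threshold. The PP121 comparison called 0 of the members without a block and 1, GFRA1, in neurons with the replicate block and with joint clusters and the block. Leaving out 1 sample gave 0 to 1 in neurons and in progenitor 2 (1 without PP121 replicate 1). Between replicates, the count rose in neurons from 0 to 1 with no filter and with the treatment term, which is the replicate block fit, and was 0 to 1 with a sample left out (1 without control replicate 2). In progenitor 1 it went from 0 to 1 by DESeq2, with no filter and with joint clusters, and to 2 with the treatment term (0 to 1 with a sample left out). In progenitor 2 it went from 0 to 1 with no filter and to 2 with the treatment term. In mesenchymal nuclei it went from 1 to 0 with no filter and with joint clusters, to 2 with the treatment term, and was 0 to 2 with a sample left out. Between nitrergic and other neurons it went from 1 to 0 by NOS1 UMIs, to 2 without doublet candidates, and was 0 to 1 with a sample left out. Share pairs that did not overlap went from 15 to 8 at 1000 UMIs, to 11 at 4000 UMIs and unthinned, and to between 22 and 28 with a sample left out, where fewer samples overlap by construction.

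Signs turned with a sample left out for ECE1 in neurons (range -0.056 to 0.47, lowest without control replicate 1), for GFRA1, lowest without PP121 replicate 2, in progenitor 1 (-0.14 to 1.02), progenitor 2 (-0.12 to 0.95) and all nuclei (-0.030 to 1.20), and for EDNRA in mesenchymal nuclei (-0.77 to 0.69, with -0.26 without control replicate 2 and the lowest without PP121 replicate 1). A PP121 fit without 1 sample has unequal days in its groups and takes its spread from the larger group alone. Within days 42 and 38 the GFRA1 ratio of PP121 to control was 1.15 and 1.71 in progenitor 1. It was 1.09 and 1.58 in progenitor 2, and 1.36 and 1.76 in all nuclei. The day 42 intervals of both progenitor classes covered 1. The part of the day in these turns was not tested. EDNRA turned to -0.90 in the nitrergic contrast by NOS1 UMIs. The cause was not tested. The replicate block changed 2 of 25 calls of single members. Genes called in neurons numbered 0, and 87 by DESeq2, 69 with no filter, 3152 with the block, 853 with joint clusters and the block, 1402 without PP121 replicate 1 and 156 without PP121 replicate 2. Depth limits RET, GDNF, NRTN, EDN3 and GFRA3 most, each with 42 to 124 UMIs in all.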
